A study of Mus musculus with 6 samples.

Results

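Neutrophils find and answer inflamed tissue through a small set of surface receptors, and 8 of these genes were followed in tumour-associated macrophage (TAM) libraries from mouse colorectal tumours: Cxcr1, Cxcr2, Csf3r, Fpr1, Fpr2, Il1r2, Trem1 and Ly6g. The genes were chosen by name, as receptors or surface proteins known from neutrophils. Of the 8, 7 were found by symbol among the 24391 gene rows of the read count table and the 23284 gene rows of the FPKM table (fragment counts scaled by gene length and library size). Ly6g, which encodes the surface protein most used to stain mouse neutrophils, was not matched and is not analysed here. Of the 7, 6 passed the filter on low counts and were tested. Cxcr1 was too sparse and is described only.

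CXCR1 and CXCR2 are G protein-coupled receptors for CXC chemokines, and they direct neutrophils out of the blood and into tissue. CXCL1, CXCL2 and CXCL5 are ligands of CXCR2. CSF3R is the receptor for granulocyte colony-stimulating factor (G-CSF), FPR1 and FPR2 sense formylated peptides from bacteria and damaged mitochondria, IL1R2 is a decoy that binds interleukin 1 without signalling, and TREM1 amplifies inflammatory signals through the adaptor DAP12. None of these proteins belongs to neutrophils alone: monocytes and macrophages can also carry FPR1, FPR2, TREM1 and IL1R2.

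All libraries came from BALB/C mice with colorectal tumours, either wild type (WT) or deficient in the chemokine gene Ccl5 (CCL5-/-). TAMs were divided by surface staining: cells with much CD11b and little F4/80 are called F4/80low here, and gave 2 WT and 2 CCL5-/- libraries with read counts. Cells with little CD11b and much F4/80, called F4/80hi, are represented by FPKM from a single library for each genotype label. Age, sex and whether libraries came from separate animals are not given in the sources used here, so p-values reflect only how much these libraries vary, and that variation may be technical.

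The libraries did not stand as 6 separate samples of their labels. Total counts ranged from 9280635 to 22411342 in F4/80low, and the ribosomal RNA precursor Rn45s took 58.4% and 50.0% of them in replicate 1 of WT and CCL5-/-, against 0.844% and 1.38% in replicate 2. The targeted gene Ccl5 had 255 (replicate 1) and 3976 (replicate 2) reads in WT F4/80low, while CCL5-/- had only 35 and 82, so gene and label matched there. In F4/80hi the gene went against the genotype fields, with 145 FPKM where the label was CCL5-/- and 15.7 FPKM where it was WT, and the sample titles also name the other genotype for each. The ratio between the F4/80hi libraries matched the split of reads between WT replicate 1 and CCL5-/- replicate 1 of F4/80low. The median chi-square was 0.335 over 6677 genes with 20 to 400 reads in these 2 F4/80low libraries together. Independent reads give at least 0.455, and every other ordering of F4/80low libraries, 11 in all, lay between 3.57 and 8.90. By this median the F4/80hi libraries and replicate 1 of F4/80low thus differed by less than sampling noise with their labels crossed. They are counted as 1 set of libraries, and which gate it came from is not settled.

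The receptors lie on 3 chromosomes (GRCm38, GENCODE M21), and 4 of them sit in neighbouring pairs. Cxcr2 (chromosome 1, 74153989 to 74161246) and Cxcr1 (chromosome 1, 74191785 to 74194631) are 30538 bases apart, and Il1r2 lies on the same chromosome (40074079 to 40125231). Fpr1 (chromosome 17, 17876471 to 17883940) and Fpr2 (chromosome 17, 17887824 to 17893952) are read in opposite directions from start sites with 3883 bases between the genes, and Trem1 is also on chromosome 17 (48232768 to 48246924). Csf3r is on chromosome 4 (126024550 to 126044440). All 7 are protein-coding, and counts refer to reads over their exons as far as the deposited table tells.

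Fpr1 and Fpr2 are relatives and neighbours whose transcripts behaved differently in these libraries, as the values further on show, while Trem1 followed Fpr1 more closely. The bases directly upstream of the start sites of these 3 genes are therefore printed, from RefSeq (GRCm38.p6), 5′ to 3′ on the strand of the gene. Capitals mark AGGAA or its reverse complement, the core that ETS factors such as the myeloid factor PU.1 bind. Fpr1 is on the minus strand (chr17:17883941-17884189), Fpr2 on the plus strand (chr17:17887574-17887823) and Trem1 on the plus strand (chr17:48232489-48232738).
Fpr1: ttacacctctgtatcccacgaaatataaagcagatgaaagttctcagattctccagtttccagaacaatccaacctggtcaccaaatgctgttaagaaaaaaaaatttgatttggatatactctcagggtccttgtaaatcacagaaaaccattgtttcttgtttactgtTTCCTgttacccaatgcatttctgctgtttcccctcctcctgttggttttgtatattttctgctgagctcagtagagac
Fpr2: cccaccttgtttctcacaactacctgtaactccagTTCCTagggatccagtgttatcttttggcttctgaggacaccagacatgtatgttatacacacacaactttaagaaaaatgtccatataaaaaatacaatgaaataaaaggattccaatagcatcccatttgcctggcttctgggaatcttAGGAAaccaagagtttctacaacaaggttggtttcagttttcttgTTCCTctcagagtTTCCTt
Trem1: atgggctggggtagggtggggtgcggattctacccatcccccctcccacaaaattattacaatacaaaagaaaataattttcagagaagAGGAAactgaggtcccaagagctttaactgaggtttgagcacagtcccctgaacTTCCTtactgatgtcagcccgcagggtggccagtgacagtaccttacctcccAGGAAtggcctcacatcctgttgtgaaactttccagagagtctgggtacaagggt

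The Fpr1 and Fpr2 stretches were both rich in A and T, with 38.6% and 38.8% G and C, against 49.6% for Trem1. The longest run of bases that Fpr1 and Fpr2 shared was 10. AGGAA was matched 1 time upstream of Fpr1, 4 times upstream of Fpr2 and 3 times upstream of Trem1, and it occurs on either strand in 60.3% of 32841 promoter windows of 250 bases. The other motifs searched on both strands were TTNNGCAA (C/EBP, in 9.57% of windows), GAGGAAG (a PU.1 site that contains the ETS core, in 10.6%) and TGANTCA (AP-1, in 6.75%). Of these, only GAGGAAG was found upstream of the RefSeq start of any of the 7 genes with values, 1 time, at Csf3r. That match, 86 to 80 bases before the RefSeq start, lies inside the Csf3r gene as annotated in GENCODE M21. A match describes the letters and not a bound site.

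Across the 4 F4/80low libraries the tested receptors other than Fpr2 split first by replicate number. They then split by genotype, apart from Cxcr2 in replicate 2. Levels are given as TMM-scaled CPM (reads relative to library size, scaled between libraries), with libraries in the order WT replicate 1, WT replicate 2, CCL5-/- replicate 1 and CCL5-/- replicate 2. For most members the order was the same: WT replicate 1 highest, CCL5-/- replicate 1 next, and the replicate 2 libraries lowest. Because these are bulk samples, fewer cells of a type and less RNA per cell cannot be told apart.

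The chemokine receptors were the sparsest members. Cxcr2 was at 32.0, 1.71, 8.83 and 1.80 CPM, from 186, 52, 76 and 49 reads. Both replicate 2 libraries were lower than both replicate 1 libraries, and the genotypes overlapped, since CCL5-/- replicate 1 was above WT replicate 2. Cxcr1, its neighbour, had 12, 1, 1 and 0 reads, so WT replicate 1 at 2.06 CPM was the only library with more than 1 read. A count of 0 in CCL5-/- replicate 2 allows up to 0.110 CPM (3 reads), and the replicate 2 libraries cannot be compared at this depth.

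The growth factor and decoy receptors had enough reads for a small counting error in each library. Csf3r was at 236, 30.6, 75.9 and 17.3 CPM, from 1374, 930, 653 and 472 reads. Il1r2 was at 324, 51.6, 135 and 31.9 CPM, from 1887, 1569, 1163 and 870 reads. In both genes CCL5-/- was below WT at each replicate number, yet CCL5-/- replicate 1 was above WT replicate 2, so the genotypes overlapped. Trem1 showed the same arrangement, at 296, 58.5, 145 and 36.8 CPM from 1721, 1779, 1250 and 1002 reads.

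The formyl peptide receptors parted ways. Fpr1 was at 40.5, 5.82, 9.18 and 3.01 CPM, from 236, 177, 79 and 82 reads, and followed the members above. Fpr2 was at 109, 127, 73.7 and 64.7 CPM, from 634, 3855, 634 and 1761 reads. Fpr2 alone among the 6 tested had both CCL5-/- libraries below both WT libraries, a pattern that 8.24% of the 12710 genes tested also showed.

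**Figure D1:**
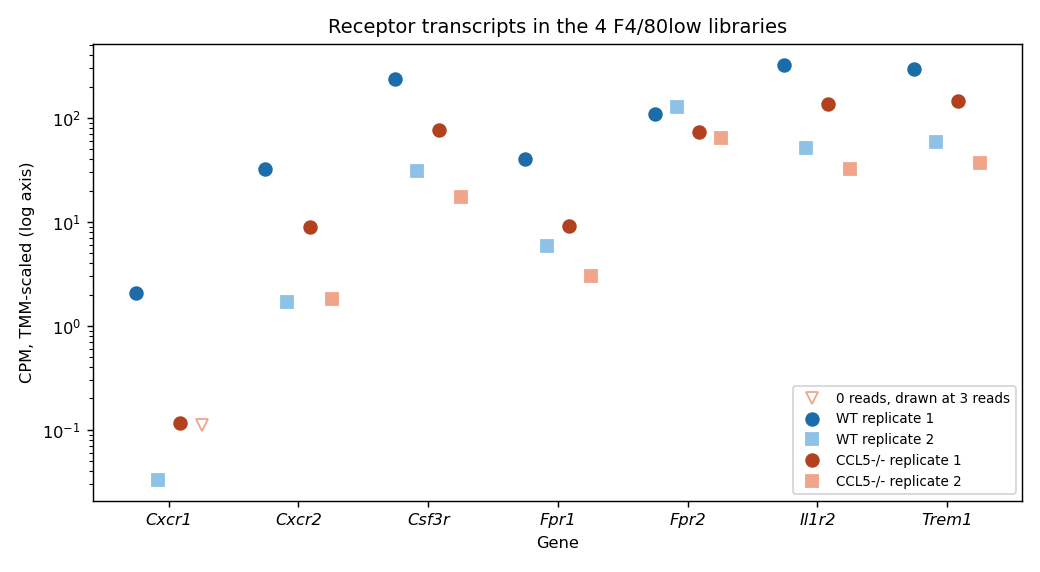
Level of each receptor gene (CPM, log axis) in the 4 F4/80low libraries, WT in blue and CCL5-/- in orange-red, replicate 1 as dark circles and replicate 2 as light squares. The open triangle is a library with 0 reads of Cxcr1 drawn at the level of 3 reads. Fpr2 stays between 64.7 and 127 CPM, while the squares of the other genes lie below both circles (Cxcr1 too sparse to judge).

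Levels of different genes can be compared only per length, so CPM was divided by the exon length of GENCODE M21 in kilobases. In WT, Il1r2 was at 98.5 ± 101, Fpr2 at 90.9 ± 9.72, Trem1 at 59.1 ± 56.0, Csf3r at 36.9 ± 40.3, Fpr1 at 17.5 ± 18.5, Cxcr2 at 5.52 ± 7.02 and Cxcr1 at 0.702 ± 0.962 CPM per kilobase (mean ± SD, n = 2). In CCL5-/- the values were 53.4 ± 4.92 for Fpr2, 43.8 ± 38.3 for Il1r2, 30.4 ± 25.6 for Trem1, 12.9 ± 11.5 for Csf3r, 4.61 ± 3.30 for Fpr1, 1.74 ± 1.63 for Cxcr2 and 0.0390 ± 0.0551 for Cxcr1. Neighbours in these orders overlapped within 1 SD, apart from Cxcr2 and Cxcr1 in CCL5-/-. Within single libraries the order was steadier. Csf3r, Fpr1, Cxcr2 and Cxcr1 held ranks 4 to 7, in that order, in all 4 libraries, and Il1r2, Fpr2 and Trem1 shared the first 3 ranks.

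What changed between libraries was the place of Fpr2. Fpr2 made up 18.2% and 27.4% of the receptors' summed length-scaled level in replicate 1 of WT and CCL5-/-, and 62.0% and 57.6% in replicate 2. Il1r2 made up 36.9% and 34.2% in replicate 1 and 17.1% and 19.3% in replicate 2. Per length, Fpr2 was 2.75 and 8.20 times Fpr1 in replicate 1 of WT and CCL5-/-, and 22.2 and 21.9 times Fpr1 in replicate 2. By contrast the ratio of Il1r2 to Trem1 ran only from 1.36 to 1.72 over the 4 libraries, and that of Il1r2 to Csf3r from 2.60 to 3.49.

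**Figure D2:**
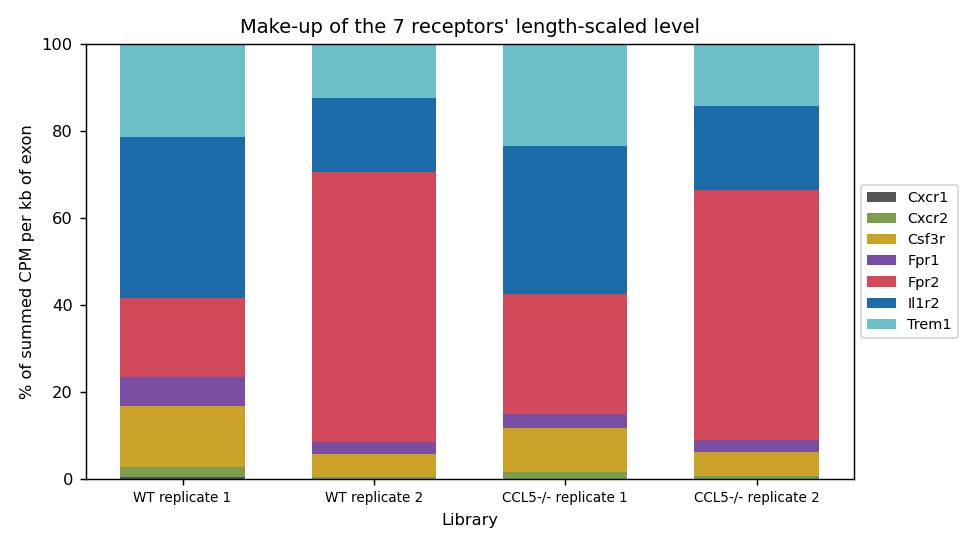
Share of each gene in the summed length-scaled level (CPM per kilobase of exon) of the 7 receptors, in percent, with 1 stacked bar per F4/80low library. The Fpr2 share is 62.0% and 57.6% in the replicate 2 libraries and 18.2% and 27.4% in the replicate 1 libraries.

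The first comparison asked whether the receptors differed between CCL5-/- and WT F4/80low TAMs. All 6 tested members had negative log2 changes, with a median of -1.34 against -0.01 over all genes tested, and none passed. The changes were -1.93 (SE 1.03) for Fpr1, -1.67 (SE 1.40) for Cxcr2, -1.52 (SE 1.12) for Csf3r, -1.17 (SE 1.05) for Il1r2, -0.96 (SE 0.97) for Trem1 and -0.77 (SE 0.37) for Fpr2. In edgeR's quasi-likelihood test with Benjamini-Hochberg adjustment 0 of the 6 passed at 0.05 after adjustment, and without adjustment 0 were under 0.05 as well. Ccl5, the targeted gene, did not pass this test either (-4.64, SE 0.69, unadjusted p = 0.00076, adjusted p = 0.99997). A gene that does not pass here is therefore not shown to be unchanged. Across all genes 0% were called, and 0.323% had an unadjusted p under 0.05. The lowest unadjusted p among the members were 0.086 for Fpr2 and 0.11 for Fpr1 (edgeR), and DESeq2 without a replicate term, where 0.00556% of genes were called, and limma-voom without one, where 0% were, also called 0 members. The authors' deposited table gives negative log2 changes for all 7 as well, from -0.19 for Cxcr1 to -0.51 for Fpr1, each with an adjusted p of 0.9999. Ccl5 did pass in the authors' test (-1.68, adjusted p = 2.6e-05). Its change there is much smaller than the -4.64 of edgeR, so the sizes in the 2 sources are not on 1 scale.

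One library carried much of these changes. When WT replicate 1 was left out, log2 changes became 1.61 for Cxcr2, 0.70 for Il1r2, 0.64 for Trem1, 0.61 for Csf3r and 0.05 for Fpr1, and -0.86 for Fpr2. Leaving out 1 library leaves the replicate numbers uneven between the genotypes, so these values mix genotype with replicate number. Over the 4 ways of leaving out 1 library Fpr2 stayed between -0.86 and -0.66.

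Comparing only libraries of the same number removes the replicate split. The replicate 1 pair gave -2.14 for Fpr1 (95% counting interval -2.53 to -1.77), -1.85 for Cxcr2 (-2.26 to -1.46), -1.64 for Csf3r (-1.773 to -1.501), -1.26 for Il1r2 (-1.37 to -1.16), -1.02 for Trem1 (-1.13 to -0.92) and -0.56 for Fpr2 (-0.72 to -0.40). These are log2 changes in CCL5-/-, and the intervals are exact and cover counting error only. The replicate 2 pair gave -0.97 for Fpr2 (-1.05 to -0.89), -0.95 for Fpr1 (-1.35 to -0.56), -0.82 for Csf3r (-0.98 to -0.66), -0.69 for Il1r2 (-0.81 to -0.57), -0.67 for Trem1 (-0.78 to -0.56) and 0.07 for Cxcr2 (-0.52 to 0.67). Thus 5 of the 6 were lower in CCL5-/- in both pairs, against 26.5% of all genes tested, and 0 were higher in both, against 24.8%. Every tested member except Fpr2 had its larger difference in the replicate 1 pair, and Cxcr2 showed no difference beyond counting error in the replicate 2 pair. Cxcr1 gave -4.15 in the replicate 1 pair (-9.57 to -1.39), from 12 reads against 1. With 1 library per genotype in a pair, the difference between the pairs could not be tested.

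**Figure D3:**
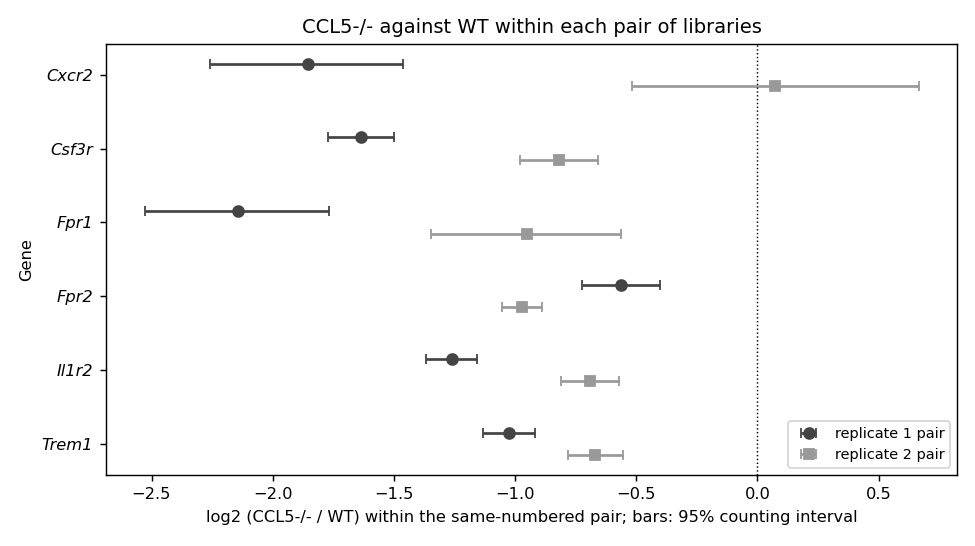
Log2 ratio of CCL5-/- to WT for the 6 tested receptors within the replicate 1 pair (dark circles) and the replicate 2 pair (grey squares), with exact 95% counting intervals as bars. The replicate 1 values run from -2.14 for Fpr1 to -0.56 for Fpr2, and in the replicate 2 pair only the interval of Cxcr2 crosses 0.

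A fit with the replicate number as a second term gave smaller errors, and the change of Cxcr2 moved most, from -1.67 to -0.99. The log2 changes were -1.55 (SE 0.30) for Fpr1, -1.23 (SE 0.25) for Csf3r, -0.99 (SE 0.44) for Cxcr2, -0.98 (SE 0.24) for Il1r2, -0.85 (SE 0.23) for Trem1 and -0.77 (SE 0.23) for Fpr2. In edgeR 0 of the 6 passed over all genes, where 0.0787% were called. The lowest adjusted p among the members were 0.094 for both Csf3r and Fpr1. Ccl5 also did not pass in this fit (-4.58, SE 0.53, adjusted p = 0.099). All 6 were under 0.05 without adjustment with a negative change, as did 4.01% of all genes. Csf3r passed in DESeq2 with the term (adjusted p = 0.015), where 0.253% of genes were called. Csf3r (adjusted p = 0.016) and Fpr1 (0.026) passed in limma-voom with the term, where 0.370% were called.

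The second comparison set replicate 2 against replicate 1, because the replicate number was the strongest divide among these libraries. Rn45s took 58.4% and 50.0% of counts in replicate 1 of WT and CCL5-/-, against 0.844% and 1.38% in replicate 2. The gate of the set that holds replicate 1 is not settled. A difference by replicate number therefore cannot be told apart from one by Rn45s share, depth or gate. Of the 6 tested members 5 were lower in replicate 2, against 18.0% of all genes, and 0 were higher, against 13.9% (edgeR fit with genotype, adjusted p under 0.05). The log2 difference was -3.31 (SE 0.45) for Cxcr2 (adjusted p = 0.00069), -2.55 (SE 0.26) for Csf3r (7.7e-06) and -2.37 (SE 0.24) for Il1r2 (9.2e-06). For Fpr1 it was -2.26 (SE 0.31, adjusted p = 0.00013) and for Trem1 -2.16 (SE 0.23, adjusted p = 1.4e-05). Fpr2 had 0.02 (SE 0.22, adjusted p = 0.97), a value within its error of 0, unlike that of Fpr1 beside it. The difference between these genes was not tested. Without the genotype term 3 of the 6 passed, and Csf3r (adjusted p = 0.055) and Fpr1 (0.14) did not.

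**Figure D4:**
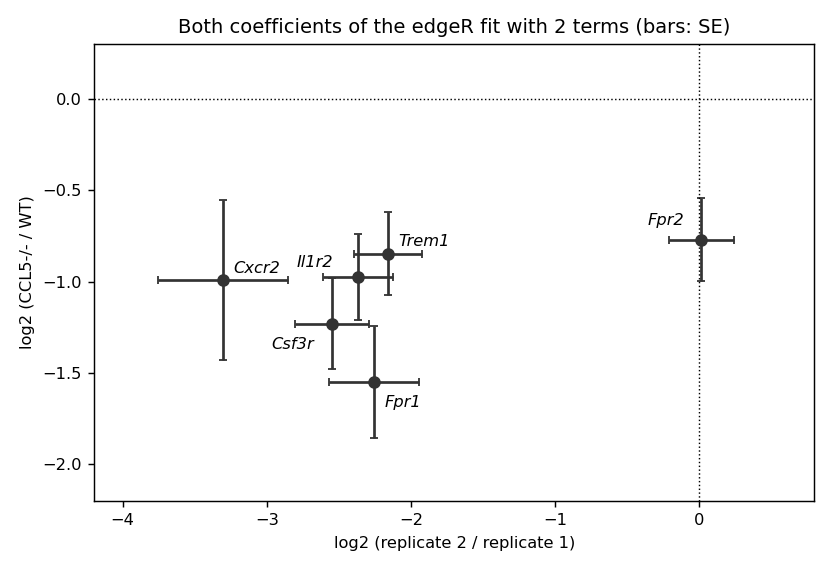
Log2 difference between replicate numbers (x axis, replicate 2 over replicate 1) and between genotypes (y axis, CCL5-/- over WT) for the 6 tested receptors, from 1 edgeR fit with both terms, with standard errors as bars. Fpr2 lies at 0.02 on the x axis and the other 5 genes between -3.31 and -2.16, while on the y axis all 6 lie between -1.55 and -0.77.

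Transcripts that neutrophils hold in granules and cytosol had a summed level that ranked the libraries as the receptors did. Of 22 such markers 20 were tested, and their median log2 change in CCL5-/- was -2.10. Within pairs it was -2.44 for replicate 1 and -0.89 for replicate 2. Without the replicate term 0 passed in edgeR, 2 were under 0.05 without adjustment, and both were lower. Over all genes 0.323% were under 0.05 in that fit, in either direction. With the term 4 passed in edgeR, against 0.0787% of all genes, 8 in DESeq2 (0.253%) and 12 in limma-voom (0.370%), all lower. Between replicate numbers 14 of the 20 were lower in replicate 2, against 18.0% of all genes, and 6 did not pass. Their summed level was 4526 and 774 CPM in WT replicates 1 and 2, and 1068 and 457 CPM in CCL5-/- replicates 1 and 2. The summed level of the receptors was 1039, 275, 448 and 156 CPM in the same order. Of the marker sum in WT replicate 1, S100a9 gave 1834.5 and S100a8 973 CPM, both named after their values were seen. S100a9 was at 366 CPM in WT replicate 2, slightly above the 358 CPM of CCL5-/- replicate 1, unlike the receptor sum. S100a8 did not pass between replicate numbers (edgeR adjusted p = 0.14). Genes of immature granulocytes, named after their values were seen, were uneven. Elane had at most 1 read and Mpo at most 5 in any library, while Ngp had 538, 140, 41 and 53 reads, Ltf 155, 39, 34 and 31, and Camp 63, 54, 4 and 6, each highest in WT replicate 1. Ctsg (11, 55, 10 and 31 reads) and Prtn3 (8, 28, 6 and 17) were low and did not pass between replicate numbers (edgeR adjusted p = 0.96 and 0.73). Whether a changing number of neutrophils in the sorted cells has a part in the receptor values was not tested.

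Macrophage markers did not share a common order of libraries. Their summed level, most of it from Apoe and the complement genes C1qa, C1qb and C1qc, was 1897, 3115, 2056 and 2213 CPM in the same order of libraries, all 12 markers were tested, and their median log2 change was -0.12. Between replicate numbers 3 were higher in replicate 2 (C1qa, C1qb and C1qc) and 3 lower (Mrc1, Mertk and Maf), against 13.9% and 18.0% of all genes. Mertk, a receptor for dying cells, was at 14.8, 3.55, 8.95 and 1.95 CPM, the order of the receptors. Monocyte markers summed to 3740, 1530, 2944 and 1452 CPM, of which the fibronectin gene Fn1 gave 2693 CPM in WT replicate 1. Between replicate numbers 5 of the 9 were lower in replicate 2, against 18.0% of all genes, and 1, Plac8, was higher (log2 difference 0.91, edgeR adjusted p = 0.016). Chil3 stands in both this list and the granule list. Their median log2 change in CCL5-/- was -0.48, and 0 passed in edgeR with or without the term. Their part in the receptor values was not tested. Lists for dendritic cells, lymphoid cells, epithelium, endothelium, and eosinophils with basophils and mast cells summed to between 10.5 and 77.1 CPM, with Il5ra at 0 reads throughout, and fibroblast markers summed to 691 to 1030 CPM.

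No listed ligand gene of CXCR1 or CXCR2 passed the test between genotypes. The 7 genes listed as ligands include Pf4, whose place as a ligand of these receptors is not established. Of the 7, 6 were tested, Pf4 among them, and 0 passed in edgeR. Without adjustment 0 were under 0.05, and the median log2 change was -0.05. Cxcl1, an abundant chemokine that draws neutrophils, was at 993, 1370, 1376 and 1494 CPM, so both CCL5-/- libraries lay above both WT libraries, by a narrow margin (log2 change 0.28, SE 0.51). Cxcl2 was at 2221, 1224, 2085 and 827 CPM and Cxcl5 at 4.81, 8.19, 10.3 and 5.29 CPM, and both overlapped between genotypes. Between replicate numbers 2 of the 6 listed genes tested were lower in replicate 2, against 18.0% of all genes, and 0 were higher, against 13.9%.

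The other ligands were uneven. Of 9 genes 7 were tested, and 0 passed between genotypes in edgeR with or without the replicate term. In limma-voom with the term 1 was called lower, where 0.370% of all genes were called in either direction. Saa3, an acute-phase protein of the serum amyloid A family, other members of which act on FPR2, was at 22.5, 13.2, 4.07 and 6.24 CPM, with both CCL5-/- libraries below both WT libraries (log2 change -1.77, SE 0.47, edgeR unadjusted p = 0.011, adjusted p = 0.99997). Pglyrp1, a peptidoglycan recognition protein reported as a TREM1 ligand and stored in neutrophil granules, had -1.52 (SE 0.89). Il1b, the cytokine that IL1R2 captures, was at 2222, 3269, 2118 and 1848 CPM and had -0.47 (SE 0.56). Csf3, which encodes G-CSF, was named after its values were seen as the partner of Csf3r, and was at 16.7, 33.3, 17.6 and 37.7 CPM. It was higher in replicate 2 (log2 difference 1.05, edgeR adjusted p = 0.0024), where its receptor gene was lower.

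Among 21 partners and relatives of the receptors 18 were tested, with a median log2 change of -0.38, and 0 passed between genotypes in edgeR. Ly6i, a relative of Ly6g, had the lowest p, with -1.77 (SE 0.99) from 3, 112, 5 and 19 reads. Cxcr4, the receptor that retains neutrophils in bone marrow, had -0.72 (SE 0.42). Tyrobp, which encodes the adaptor DAP12 of TREM1, had -0.70 (SE 0.48) and between replicate numbers -0.09 (edgeR adjusted p = 0.84). In replicate 2, 6 of the 18 were lower, against 18.0% of all genes, and 1 was higher, against 13.9%. Trem3, Il1rap and Treml1 were named after their values were seen. Trem3 and Il1rap were lower in replicate 2, by log2 differences of -1.58 and -1.49 (edgeR adjusted p = 0.0014 and 0.00039). Treml1, another relative of Trem1, was the 1 that was higher (5.26, edgeR adjusted p = 0.00092), from 1, 105, 0 and 70 reads. Trem3 is a neighbour and relative of Trem1, and Il1rap encodes the co-receptor of interleukin 1. Fpr3, a close relative of Fpr2, had 0 reads in all 4 libraries. How reads shared between such relatives were counted is not given, so the reads of Fpr2 may include some of theirs.

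Signalling genes below the receptors had small values. Of 24 listed 23 were tested, 0 passed between genotypes in edgeR with or without the term, and the median log2 change was -0.25. Rgs2, a brake on G protein signalling, had -0.59 (SE 0.42), and Rac2, a GTPase of leukocyte movement and the oxidative burst, had -0.51 (SE 0.37). Of the 23, 14 were lower in CCL5-/- in both pairs, against 26.5% of all genes. Between replicate numbers 7 of the 23 were lower in replicate 2, against 18.0% of all genes, and 1 was higher, against 13.9%.

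Other surface receptors found on neutrophils were also examined. Of 30 genes 28 were tested, with a median log2 change of -0.40, and 0 passed between genotypes in edgeR. In both pairs 19 were lower in CCL5-/-, against 26.5% of all genes, and 0 were higher, against 24.8%. Mrgpra2b, a Mas-related receptor of neutrophils, had -2.74 (SE 1.04, edgeR unadjusted p = 0.042, adjusted p = 0.99997), from 30, 30, 5 and 9 reads. Siglece, an inhibitory sialic acid receptor, had -1.90 (SE 0.92), and Clec4e, the Mincle receptor for fungal and mycobacterial lipids, had -0.83 (SE 0.49). Between replicate numbers 15 of the 28 were lower in replicate 2, against 18.0% of all genes, and 0 were higher. Clec4e was among those that did not pass (-0.09, adjusted p = 0.84), at 565, 723, 429 and 297 CPM, which leaves CCL5-/- below WT in both pairs as for Fpr2.

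Genes with the most similar profile over the 4 libraries were sought among 8437 other genes with a mean log2 CPM of at least 3, by the root mean square distance between centred log2 CPM. The nearest to the median profile of the 6 receptors were Themis2 (distance 0.18), Hdc (0.18), Pik3ap1 (0.18), Pygl (0.24), Pag1 (0.24), Sh2d3c (0.25), Nbea (0.27) and Cyfip2 (0.28). Hdc, the enzyme that makes histamine, was at 249.4, 34.4, 67.4 and 22.0 CPM, and Themis2 at 78.5, 9.01, 30.7 and 6.79 CPM. Both had WT replicate 1 highest, then CCL5-/- replicate 1. Taken 1 by 1, the nearest gene was Chil3 for Cxcr2 (0.28), Themis2 for Csf3r (0.18), Hdc for Fpr1 (0.13), Pik3ap1 for both Il1r2 (0.11) and Trem1 (0.07), and Arid4a for Fpr2 (0.04). With only 4 libraries such likeness is a description.

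Among the receptors themselves the closest pair by the same measure was Il1r2 and Trem1 (0.13), followed by Il1r2 and Csf3r (0.16). Fpr2 was the farthest from every other member, between 1.10 from Trem1 and 1.70 from Cxcr2. Fpr1 was closer to Csf3r (0.25) than to its neighbour Fpr2 (1.23).

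The F4/80hi libraries repeat the replicate 1 pair on another scale and add no independent replicate. All 7 receptors were higher in the library labelled CCL5-/- than in the library labelled WT, the reverse of F4/80low by the labels. Under the sample titles, which name the other genotype, every sign below would turn. Il1r2 was at 336 FPKM under the CCL5-/- label and 136 FPKM under the WT label, with the authors' bounds at 110 to 561 and 47.7 to 225. Fpr2 was at 152 and 102 FPKM, Trem1 at 149 and 74.7, Csf3r at 75.9 and 21.1, Fpr1 at 57.99 and 11.3, and Cxcr2 at 21.3 and 6.26 FPKM. Cxcr1 had 2.33 FPKM under the CCL5-/- label and was listed at 0 under the WT label.

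On the log2(FPKM + 1) scale, which understates changes of low genes, the differences were 2.26 for Fpr1, 1.80 for Csf3r, 1.62 for Cxcr2, 1.29 for Il1r2, 0.99 for Trem1 and 0.57 for Fpr2. Thus 5 of 7 were at least 2-fold higher in the library labelled CCL5-/-, against 2.35% of 11668 genes, and the median was 1.62 against -0.02 over those genes. Both include Cxcr1, which was listed at 0 in the other library, so its difference is set by the added constant (1.74 with 1, 4.604 with 0.1 and 0.55 with 5). A single library for each label allows no test. Without the added 1, the log2 FPKM ratios were 1.85 for Csf3r, 2.36 for Fpr1, 1.77 for Cxcr2, 1.30 for Il1r2, 1.001 for Trem1 and 0.57 for Fpr2. The log2 ratios of WT over CCL5-/- in replicate 1 of F4/80low lay close, at 1.64, 2.14, 1.85, 1.26, 1.025 and 0.56 in the same order. Csf3r, at 1.85, lay beyond its replicate 1 counting interval with the sign turned (-1.773 to -1.501 for CCL5-/- over WT).

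**Figure D5:**
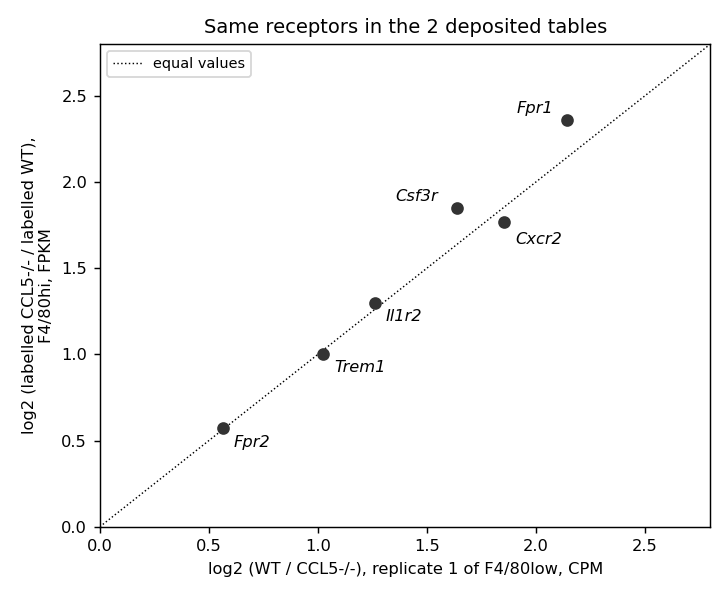
Log2 FPKM ratio of the F4/80hi library labelled CCL5-/- over the one labelled WT (y axis) against the log2 CPM ratio of WT over CCL5-/- in replicate 1 of F4/80low (x axis), with 1 point per receptor and a dotted line of equal values. The 6 points lie near the line, from Fpr2 at 0.56 and 0.57 to Fpr1 at 2.14 and 2.36.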

How the data were processed

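Members and gene lists were chosen with earlier results of these data known. The authors deposited raw read counts for F4/80low and FPKM with bounds for F4/80hi, per the file headers. Their comparison table holds, per the file headers, counts divided by size factors (a signal), log2 changes with errors, a score (test statistic) and p-values. The tools named per the submitters' processing notes are STAR, HTSeq and DESeq2, then TopHat2 2.1.1 with Cufflinks 2.2.1, and FastQC, cutadapt and bcl2fastq 2.17.1.14. The build, the use of strand and which tool made which table are not given in the sources used here. FPKM loci overlapped the GENCODE M21 gene for 99.02% of 20919 shared symbols. The depth behind FPKM is unknown.

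The F4/80low table went into edgeR 4.0.16 under R 4.3.3 (low genes removed by filterByExpr, TMM scaling, robust quasi-likelihood F test, two-sided, Benjamini-Hochberg over 12710 genes at 0.05), with DESeq2 1.42.0 and limma-voom (limma 3.58.1) as alternatives. The fits were also run on simulated counts with the same spread for every gene and the same replicate effect in both genotypes. That setting is simpler than these libraries, so it does not show how well the fits suit them. SE is the size of the log2 change divided by the square root of F. Groups follow the cell population field. Named were all members, Ccl5, up to 3 genes of each pathway list by smallest p, and nearest-profile genes. A gene that this rule names is not reported here. Alternatives covered the tool, replicate term, scaling, filter, Rn45s, leaving out libraries, and the FPKM pseudocount.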

Additional observations from a re-analysis of the deposited data

Results flagged for a closer look

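By the labels, Fpr2 and Ccl5 had opposite genotype differences in F4/80low and F4/80hi. This is no measurement of a difference between gates, which was not tested. By the median chi-square, the F4/80hi libraries differed from replicate 1 of F4/80low, with labels crossed, by less than sampling noise. All 7 receptors turned the same way. Fpr2 was lower in both CCL5-/- libraries than in both WT libraries of F4/80low, and on the log2(FPKM + 1) scale it was 0.57 higher in the F4/80hi library labelled CCL5-/-. Ccl5 was likewise lower in both CCL5-/- libraries of F4/80low and 3.12 higher in the F4/80hi library labelled CCL5-/-. For Ccl5 this goes against the genotype field, and the sample titles name the opposite genotype.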

How the results depend on the processing

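For CCL5-/- against WT, edgeR called 0 genes and 0 receptors. All genes called numbered 10 in edgeR with the replicate block, 1 in DESeq2 without it, 23 in DESeq2 and 47 in limma-voom with the replicate block, and 0 to 4 when 1 library was left out. Receptors called numbered 1 in DESeq2 and 2 in limma-voom with the replicate block. With the replicate block and without Rn45s, an alternative added after seeing the data, edgeR called 24 genes and 2 receptors, Csf3r (adjusted p = 0.048) and Fpr1 (0.044). Same-numbered libraries deviated together (correlation 0.73 over 12710 genes), but with only 2 pairs and no label of a shared origin the numbers are not shown to pair them. Over 54 fits of a receptor with all libraries 49 kept direction and side of the threshold and 5 newly passed. Over 24 with 1 library left out 5 reversed, all without WT replicate 1. The ranges were -3.14 to 1.61 for Cxcr2, -2.88 to 0.61 for Csf3r, -2.87 to 0.0499 for Fpr1, -2.50 to 0.70 for Il1r2 and -2.21 to 0.64 for Trem1. For replicate 2 against replicate 1, the 5 receptors called became 3 without the genotype term, where 3767 genes were called. The 4047 genes called in the main fit of this comparison became 2687 in DESeq2. Leaving out 1 library was not run there, since a fit with both terms then has no residual degrees of freedom. The 5 F4/80hi receptors at least 2-fold apart were 4 to 5 under other pseudocounts. Counts of Cxcr1, and of Cxcr2 in replicate 2, limit what depth can show.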
